A study of Bos taurus with 17 samples.

Results

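Control pools 2, 3 and 6 of a bovine morula experiment were set apart from the other 6 control pools (pools 1, 4, 5, 9, 10 and 13), 3 of 9 control pools and of 17 pools in all. The members were chosen by a measured value, the number of genes with any read: each of the 3 had fewer than 12000 genes above 0 RPKM, a read number scaled to exon length and library size. Control pool 2 had 10055 such genes, control pool 3 had 11127 and control pool 6 had 11268, which lies just inside the threshold. The nearest pool outside it was control pool 10 with 13587 genes, followed by control pools 9 (13606), 13 (13973), 4 (14184), 1 (15178) and 5 (15430). Because the same RNA measurements set the pools apart, their differences from the other controls are described with values and counts, and no p-value is given for them.

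Every pool held 10 in vitro produced Bos taurus embryos collected at the morula stage, and the RNA of each pool was sequenced as 1 poly(A)-selected, stranded library. The 9 control pools were labelled control and the other 8 pools had received recombinant WNT5A, a secreted WNT ligand. The 8 WNT5A pools were used here as a source of gene levels in libraries that played no part in choosing the 3. The labels name no fertilisation round, bull, oocyte source or library day, and do not say whether a control pool received a vehicle, so the spread between pools is that between these libraries and may be technical.

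The morula is the stage at which blastomeres of the cleaving embryo flatten against each other, become polarised and begin to separate into an outer population that forms the trophectoderm and an inner population that forms the inner cell mass. By then the transcripts inherited from the oocyte have largely been replaced by transcripts of the embryo's own genome. Adherens junction, desmosome and tight junction genes support compaction, the Hippo pathway reads position and polarity, and FGF signalling directs inner cells towards primitive endoderm.

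The depth of the 3 pools lay within the range of the other controls. They held 158, 136 and 150 M reads recovered from the table, and the other 6 held 125 to 162 M. The gap in genes detected was largest among weakly expressed genes and closed with level. At least 1 RPKM was reached by 8417, 9341 and 9068 genes in control pools 2, 3 and 6 and by 10974 to 11561 genes in the other 6. At least 10 RPKM was reached by 5519 to 5705 genes in the 3 and 5653 to 5993 in the 6, where the ranges overlapped. At least 100 RPKM was reached by 1308 to 1457 genes in the 3 and 1096 to 1372 in the 6. The 8 WNT5A pools, 3 of which held fewer than 100 M reads, had 13129 to 16589 genes detected, all above the 3. After the reads of all controls were thinned to the smallest control library the counts of lower, higher and lost genes given below were almost the same (923, 78 and 277).

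**Figure D1:**
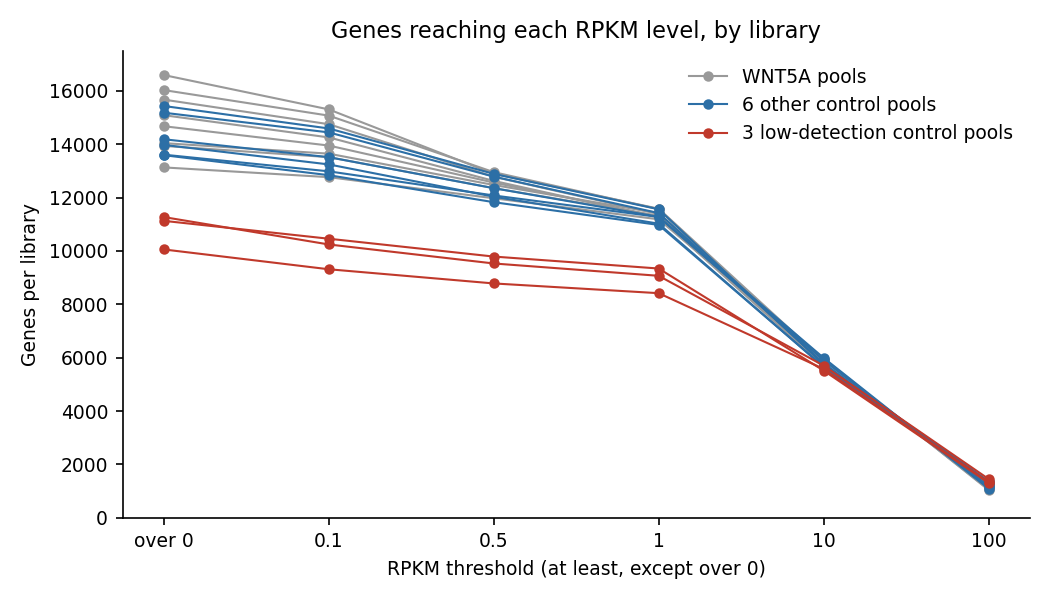
Number of genes per library at or above each RPKM level on the x axis (above 0 for the first point), with 1 line per pool: red for control pools 2, 3 and 6, blue for the other 6 control pools, grey for the 8 WNT5A pools. The red lines lie apart up to 1 RPKM (8417 to 9341 genes against 10974 to 11561 in blue) and meet the others at 10 RPKM.

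The size of the loss was described in genes defined without the controls. The 3 pools were chosen by their number of genes with any read, so a larger share of absent genes in them follows from that choice. In the 8 WNT5A pools, 9884 genes reached 0.5 RPKM in every pool. Of these, 1862 (18.8%) were under 0.1 RPKM in control pool 2, 1157 (11.7%) in control pool 3 and 1257 (12.7%) in control pool 6. In the other 6 controls the number was 14 to 183 (0.142% to 1.85%). No read at all was found for 1509, 901 and 779 of these genes in the 3 pools and for 11 to 100 in the 6. Using only the 5 WNT5A pools with over 100 M reads, 11040 genes qualified, and 23.3%, 15.6% and 17.3% of them were under 0.1 RPKM in control pools 2, 3 and 6 against 0.543% to 3.68% in the others.

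The share of absent genes was smaller in each higher class of gene level. Among genes with a WNT5A mean of 0.5 to 2 RPKM, 56.6%, 44.8% and 43.7% were under 0.1 RPKM in control pools 2, 3 and 6, and 1.15% to 12.9% in the other 6. Between 2 and 5 RPKM the shares were 45.0%, 31.8% and 33.7%. Between 5 and 10 RPKM they were 28.5%, 15.7% and 17.4%, and between 10 and 50 RPKM 8.0%, 3.01% and 4.07% against at most 0.0813% in the 6. At 50 RPKM or more only 0.229% and 0.0459% of genes were absent in control pools 2 and 6 and none of 2180 in control pool 3.

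Genes that stayed present were not all lower. In the class of 2 to 5 RPKM the median gene stood at 0.396 to 1.52 RPKM in the 3 pools and 2.68 to 3.33 in the 6, yet the class mean was 2.77 to 3.18 RPKM in the 3 and 2.99 to 3.74 in the 6. In this class 12.5% to 15.3% of genes in the 3 pools stood at 2 or more times their WNT5A mean, against 3.18% to 10.8% in the 6. In the class of 10 to 50 RPKM the mean was 22.4 to 24.6 RPKM in the 3 and 23.3 to 24.6 in the 6, while 63.2% to 72.8% of genes were within a factor of 2 of the WNT5A mean in the 3 and 90.5% to 94.1% in the 6. In these classes values in the 3 pools were thus scattered to both sides of the level in other pools, with a class mean close to that of the others. At 50 RPKM or more the class mean was 244, 236 and 317 RPKM in control pools 2, 3 and 6 and 178 to 256 in the 6. In that class 13.4% of genes in control pool 6 stood at 2 or more times their WNT5A mean. The share was 2.43% and 0.688% in control pools 2 and 3 and at most 1.19% in the 6.

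**Figure D2:**
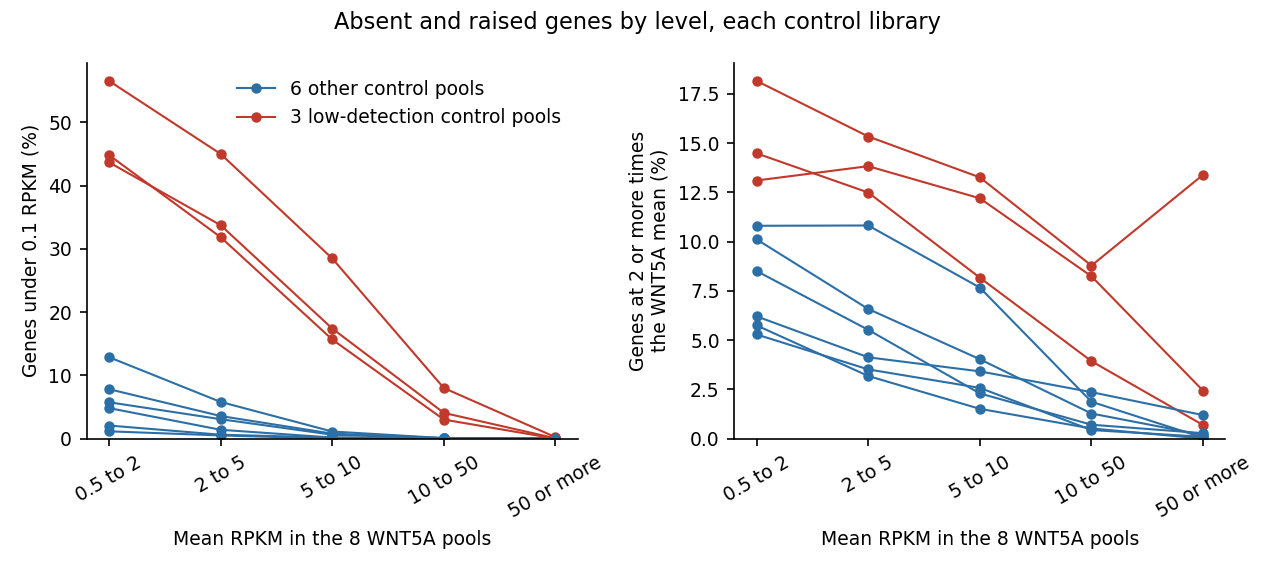
Left, the percentage of genes under 0.1 RPKM, and right, the percentage at 2 or more times the WNT5A mean, by the gene's mean RPKM in the 8 WNT5A pools, for the 9884 genes at 0.5 RPKM or more in all 8; each line is 1 control pool (red, pools 2, 3 and 6; blue, the other 6). On the left the red lines start at 43.7% to 56.6% and the blue at 1.15% to 12.9%; on the right the red lines lie above the blue in the classes between 2 and 50 RPKM.

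Most absent genes were absent in a single pool. Of the 9884 genes, 2815 were under 0.1 RPKM in at least 1 of the 3 pools: 1659 (58.9%) in 1 pool only, 851 in 2 and 305 in all 3. Genes absent in control pool 2 were absent in control pool 3 in 33.2% of cases and in control pool 6 in 36.0%. Genes present in control pool 2 were absent there in 6.72% and 7.32%. Within the class of 2 to 5 RPKM the corresponding shares for control pool 3 lay closer together, at 41.9% and 23.6%. Correlations of log2(RPKM + 1) over the 13039 genes compared below describe the same separation: 0.814 to 0.830 between pairs of the 3 pools, 0.830 to 0.890 between one of the 3 and one of the 6, and 0.909 to 0.956 between pairs of the 6. Every pair among the 3 pools thus correlated less than any of the 3 did with any of the 6. Each also had its own high genes, with 318, 195 and 368 genes above 2 times every other control in control pools 2, 3 and 6 and 16 to 59 in the 6, and 887, 439 and 599 genes under 0.5 times every other control against 1 to 40. In this bulk RNA fewer cells carrying a transcript and less RNA per cell cannot be told apart.

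For a gene-by-gene view, 13039 of 17167 genes had 0.5 RPKM or more in at least 3 of the 9 controls and were compared on log2(RPKM + 1). A gene was counted as lower when all 3 pools lay under the lowest of the other 6 and the mean difference was 1 or more on the log2 scale, and as higher by the mirrored rule. There were 920 lower genes, 7.06% of those compared, and 78 higher genes, 0.598%. With quantile normalization of the 9 libraries the split was 455 lower and 359 higher. The median difference over all genes compared was -0.27 and 64.1% of genes lay below 0. With quantile normalization the median was -0.06, and with rescaling to genes above 10 RPKM it was -0.36. Of the 920 lower genes, 752 were under 0.1 RPKM in at least 1 of the 3 pools and 115 kept 1 RPKM or more in all 3. These counts follow from the rule that chose the pools and are background for the gene groups.

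**Figure D3:**
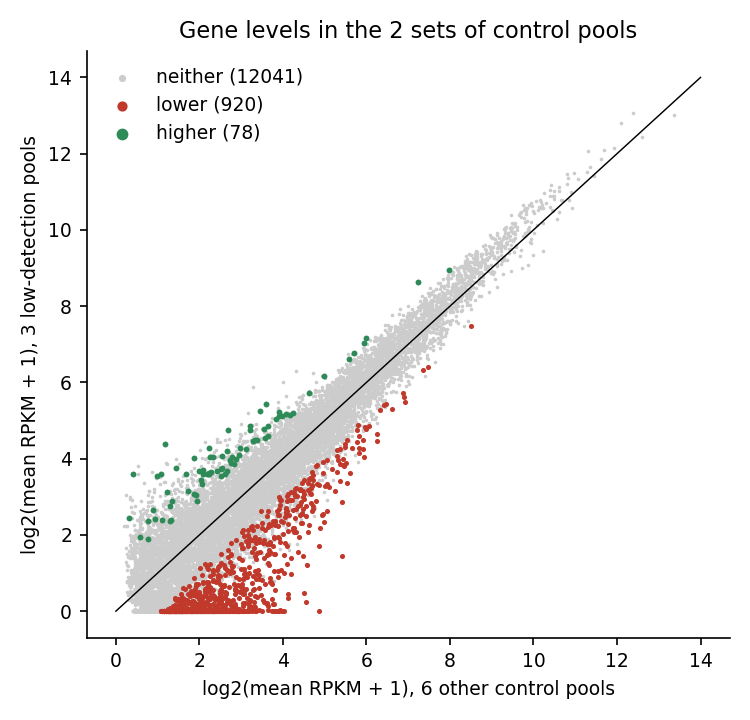
Mean level of each of 13039 genes in control pools 2, 3 and 6 (y axis) against the other 6 control pools (x axis), both as log2(mean RPKM + 1), with the line of equality. The 920 lower genes (red) include a band along 0 on the y axis, the 78 higher genes (green) lie above the line, and the remaining genes (grey) narrow towards the line at high level.

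A stricter class held genes that were present in all 6 other controls at 0.5 RPKM or more, 9731 in number. Of these, 275 (2.83%) were lost, that is under 0.1 RPKM in each of the 3 pools. A further 717 (7.37%) were absent in 2 of the 3 and 1606 (16.5%) in 1, so that 2598 (26.7%) were absent at least once. At the other end, 6734 (69.2%) were retained at 0.5 RPKM or more in all 9. For 159 of the 275 lost genes the 3 pools held no read at all. In the 6 controls the lowest read number of these 159 genes had a median of 321 and ranged from 8 to 7567, and 14 of them had more than 1000 reads in each of the 6.

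Lost and retained genes differed most in level. The median WNT5A mean was 2.94 RPKM for lost genes, 4.11 for genes absent in 2 pools, 5.71 for genes absent in 1 and 27.0 for retained genes. Their median exon lengths were 2304, 2421, 2680 and 2112 bases. Lower genes had a median exon length of 2775 bases and 10 exons against 2230 bases and 8 exons over all genes compared, and higher genes 1817 bases and 5 exons. Single-exon genes made up 8.36% of lost genes, 5.87% of retained genes and 14.1% of the 78 higher genes, against 7.09% of all compared. Within the class of 2 to 5 RPKM, 25.1% of the values of single-exon genes in the 3 pools were under 0.1 RPKM, 39.1% of those of genes with 2 to 6 exons and 36.9% of those with 7 or more. Between 10 and 50 RPKM single-exon genes had the largest share instead of the smallest, and the shares in the same order were 9.12%, 5.41% and 4.53%. Over all levels they were 13.3%, 13.6% and 14.9%.

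The lost gene with the highest level elsewhere was PKP3, plakophilin 3, a desmosomal plaque protein. It had 0 RPKM in all 3 pools, with no read, and 18.2, 27.7 and 41.4 RPKM as lowest, median and highest of the 6, from 7567 to 17418 reads. Against a floor of 3 reads in a library, mean PKP3 was at least 3907-fold lower in the 3 pools. The 8 WNT5A pools ranged from 5.43 to 40.2 RPKM, so all 14 other libraries of the series carried the transcript.

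WFDC1, a secreted whey acidic protein domain protein, was at 0 in all 3 pools and at 7.90, 16.9 and 18.0 RPKM as lowest, median and highest of the 6. JRK was at 0 in the 3 and at 6.42, 12.1 and 28.6 in the 6, and SNN, stannin, at 0 in the 3 and at 3.96, 12.2 and 23.7 in the 6. ITGB5, the integrin beta 5 subunit, had 0.0200 RPKM in control pool 2 (11 reads), 0 in control pools 3 and 6, and 9.17, 13.9 and 16.4 in the 6. MARS2, the mitochondrial methionyl-tRNA synthetase, FOXC2, a forkhead transcription factor, and SCMH1, a polycomb group protein, were also at 0 in all 3 and at 3.70 to 15.5, 2.66 to 17.6 and 0.866 to 4.03 RPKM in the 6. FOXC2 was also at 0 in at least 1 WNT5A pool, where the highest value was 8.14 RPKM.

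Near-complete loss took a different pool in other genes. HPS6, a lysosome-related organelle biogenesis subunit, had 0, 0.524 and 0 RPKM in control pools 2, 3 and 6 and 12.3 to 31.6 in the 6. POMC, the precursor of ACTH, had 0, 6.86 and 0.0141 RPKM against 19.8 to 45.4. CTSF, cathepsin F, had 0, 0 and 5.18 RPKM against 12 to 29.8. In each of these one of the 3 pools kept a measurable level, still below the range of the 6.

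Lineage regulators differed from one another in which pool was low. GATA3, a trophectoderm transcription factor, had 0.0832 RPKM in control pool 2, 34.9 in control pool 3 and 14.5 in control pool 6, and 17.4, 35.0 and 53.4 as lowest, median and highest of the 6. Control pool 2 held 32 GATA3 reads and the other 8 controls 4546 to 17912. The mean log2 difference of -2.03 (SE 1.54) was -0.55 without control pool 2, so it rests on that pool. CDX2, the caudal-type trophectoderm factor, was present in all, at 18.6, 16.1 and 31.7 RPKM in the 3 and 20.2 to 55.5 in the 6. NANOG, an epiblast factor, was at 9.51, 7.57 and 0 RPKM in the 3 and 0.378 to 15.4 in the 6, so that its level varied widely among all controls.

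Among the highly expressed markers of the morula the groups overlapped. POU5F1, the pluripotency factor, was at 1994, 1786 and 2360 RPKM in control pools 2, 3 and 6 and 1636 to 2132 in the 6. ZFP42, a pluripotency-linked zinc finger gene, was at 282, 403 and 351 RPKM against 242 to 381. KRT18, a simple-epithelial keratin, was at 397, 515 and 522 RPKM against 281 to 617, and TFAP2C at 166, 122 and 101 against 89.1 to 177. CDH1, E-cadherin, was at 127, 165 and 124 RPKM against 126 to 230. The 10 morula markers summed to 3616 to 4163 RPKM in the 3 pools and 3441 to 4966 in the 6, and 8 of the 10 were at 1 RPKM or more in all 3 pools and 9 in all 6.

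**Figure D4:**
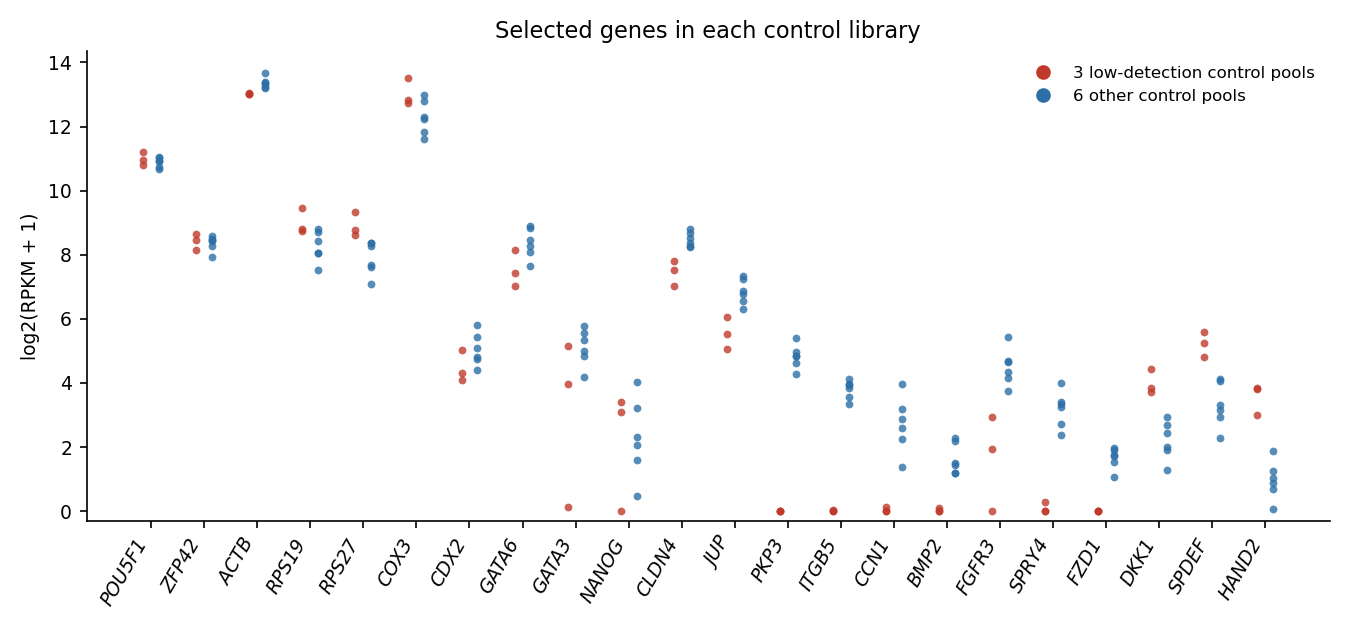
log2(RPKM + 1) of selected genes in each control pool, with red points for pools 2, 3 and 6 and blue points for the other 6. POU5F1 and ZFP42 overlap between the colours, GATA3 and NANOG each have 1 red pool near 0, PKP3 to FZD1 include genes near 0 in all 3 red pools, and DKK1, SPDEF and HAND2 have all red points above the blue.

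The pluripotency and epiblast list, as a group, had 0 of 28 members lower, against 5.30% at the same levels, and 0 higher. Its median was -0.23, and 18 of its 20 members present in the 6 were retained (90%, against 69.2% of all genes). Absent values made up 3.33% in the 3 pools against 4.31% at the same levels. FGF4, an epiblast ligand, was at 0, 37.3 and 2.14 RPKM in control pools 2, 3 and 6 and 1.89 to 10.2 in the 6. DNMT3B, a de novo DNA methyltransferase on that list, had 1.77, 3.43 and 5.56 RPKM against 5.25 to 19.2, the highest of the 3 passing the lowest of the 6. Genes linked to embryonic genome activation had 0 of 18 members lower, against 4.30% at the same levels, and a median of -0.06. Of these, 16 of 17 were retained, with 3.92% of values absent against 5.00% at the same levels.

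In the trophectoderm and trophoblast list, 2 of 35 members were lower (5.71%, against 5.96% at the same levels) and the median was -0.49. ATP1B1, the sodium pump beta 1 subunit that accompanies blastocoel formation, was at 0 in all 3 pools and at 1.57 to 8.89 RPKM in the 6. ATP1B3, another beta subunit, was at 756, 702 and 776 RPKM in the 3 and 535 to 767 in the 6. The trophectoderm keratin KRT7 was at 34.2, 42.4 and 106 RPKM against 83.6 to 167.

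The primitive endoderm list had 6 of 28 members lower (21.4%) against 6.54% of all compared genes weighted to the same levels, and 27 of 28 members below 0. Its median was -0.71, and -0.41 with quantile normalization. The 6 were the receptors FGFR2 and FGFR3, the ligand BMP2, the transcription factors GATA4 and HHEX and the basement membrane chain LAMA1. With quantile normalization the differences of FGFR2 (-0.94), BMP2 (-0.93), GATA4 (-0.68), HHEX (-0.93) and LAMA1 (-0.59) were under the log2 size of 1 that the count requires, and of the 6 only FGFR3 (-2.77) was past it. FGFR3, the main FGF receptor by level in this group, was at 0, 2.81 and 6.74 RPKM in control pools 2, 3 and 6 and at 12.4, 21.6 and 41.8 as lowest, median and highest of the 6. BMP2 was at 0, 0.0720 and 0 RPKM and at 1.26 to 3.90 in the 6, and GATA4 at 0, 0.264 and 0 against 0.781 to 2.66. GATA6, the earliest regulator of that lineage, was retained at 284, 170 and 128 RPKM against 198 to 473. Control pools 3 and 6 thus lay under the lowest of the 6. Its log2 difference was -0.83, and -1.09 with quantile normalization.

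The FGF and ERK list, which shares the receptors, had 3 of 38 members lower (7.89%, against 5.95% at the same levels) and a median of -0.39. The remaining lower member, the feedback inhibitor SPRY4, was at 0.221, 0 and 0.00377 RPKM and at 4.23, 8.86 and 15.1 as lowest, median and highest of the 6. No pool of the 3 reached the lowest of the 6 for SPRY4.

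Compaction, junction and polarity genes had 6 of 49 members lower (12.2%, against 5.86% at the same levels), 42 of 49 below 0 against 64.1% of all genes, and a median of -0.64, which was -0.33 without control pool 2. The 6 comprised the tight junction claudins CLDN3 and CLDN4, the desmosomal PKP3 and JUP (plakoglobin) and the polarity genes DLG1 and PARD6A. CLDN4 was at 183, 221 and 130 RPKM in control pools 2, 3 and 6 and at 302, 351 and 446 as lowest, median and highest of the 6. JUP was at 32.1, 45.4 and 66.1 RPKM against 78.0 to 160. CLDN4, CLDN3 and JUP were lower without being absent, while 2 members of the list, PKP3 and PARD6A, were lost. Over all genes present in the 6, 2.83% were lost. Of 44 present members 33 were retained (75%, against 69.2% of all genes). Absent values made up 12.9% in the 3 pools against 10.2% at the same levels.

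Hippo pathway members had the lowest median of the lists with 10 or more compared genes, -0.86. All genes at the same levels stood at -0.59, and the Hippo median was -0.48 without control pool 2. With quantile normalization it was -0.48 and the interferon-stimulated list lay lower, at -0.57. Of 28 members 2 were counted as lower, a share of 7.14% against the background of 7.06% and 9.40% at the same levels. Of 27 members present in the 6, 13 were absent in at least 1 of the 3 pools (48.1%, against 26.7% of all genes), and 24.7% of their values in the 3 pools were absent against 21.0% at the same levels. CCN1, a matricellular protein and known target of YAP, was lost, at 0, 0.00299 and 0.0852 RPKM against 1.61, 5.73 and 14.6 as lowest, median and highest of the 6. CCN2, a related target, was at 63.2, 15.7 and 39.0 RPKM in the 3 and 10.6 to 36.5 in the 6. The kinase gene LATS1 was at 0.323, 0 and 0.00284 RPKM against 1.06 to 4.09, and LATS2 at 0, 8.35 and 2.34 against 2.92 to 8.30. The coactivator WWTR1 (TAZ) was at 73.0, 79.9 and 89.9 RPKM against 98.3 to 143, and YAP1 at 28.2, 35.4 and 25.1 against 6.34 to 45.7.

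WNT ligands, receptors and transducers had 2 of 42 members lower (4.76%, against 7.60% at the same levels) and 1 higher (2.38%, against 0.598% of all genes). Their median was -0.25, near the -0.27 of all genes compared and above the -0.45 of all genes at the same levels. FZD1, a frizzled receptor, was at 0 in all 3 pools and at 1.07, 2.34 and 2.91 RPKM as lowest, median and highest of the 6. VANGL1, a planar polarity membrane protein, was at 0.00853, 0.00956 and 3.71 RPKM against 4.73 to 11.5. DKK1, a secreted antagonist of the canonical pathway, lay the other way, at 13.3, 12.3 and 20.7 RPKM in the 3 pools and at 1.44, 3.76 and 6.74 in the 6. WNT5A itself was at 0, 6.05 and 0 RPKM in control pools 2, 3 and 6 and at 0 to 0.386 in the other 6. The BMP and activin antagonist BAMBI was also higher, at 27.9, 33.8 and 18.2 RPKM against 6.95 to 16.3, while SKI, a repressor of SMAD signalling, was at 1.92, 0 and 0 against 2.75 to 5.85. The TGF-beta, BMP and activin list as a whole had 2 of 29 members lower (6.90%, against 8.52% at the same levels) and a median of -0.68.

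The zinc finger family held the largest number of lower genes among the lists. Of 240 compared members with ZNF, ZFP, ZSCAN or ZKSCAN symbols, many of which encode KRAB repressors, 31 were lower (12.9%) and 0 higher, against 8.72% lower among all compared genes weighted to the same levels. The median was -0.65, and -0.26 with quantile normalization. Of 148 members present in the 6, 13 were lost, where 2.83% of all such genes were. A further 65 were absent in 1 or 2 of the 3, and 62 were retained (41.9%, against 69.2% of all genes). Of the values of the 148 in the 3 pools, 29.95% were under 0.1 RPKM against 20.0% at the same levels. ZNF584 was at 0.00562, 0 and 1.17 RPKM against 3.51 to 37.9, and ZNF217 at 0, 0.865 and 0.823 against 1.78 to 10.6. ZNF74 was absent in control pools 2 and 3 (0 and 0.0227 RPKM) and present in control pool 6 at 10.6 RPKM, against 17.3 to 35.5. Members of this family share sequence, and reads that match several genes could be assigned differently between them.

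The DNA methylation and TET list had 2 of 16 members lower (12.5%, against 7.21% at the same levels) and a median of -0.56. UHRF1, which recruits the maintenance DNA methyltransferase, was at 0.0926, 0.0215 and 1.63 RPKM in control pools 2, 3 and 6 and at 3.91 to 12 in the 6. MBD3, a subunit of the NuRD complex, was at 16.8, 37.3 and 9.08 RPKM against 46.2 to 97.2. DNMT1, the maintenance enzyme, was at 10.8, 6.44 and 13.5 RPKM and overlapped the 4.66 to 14.4 of the 6. Histone methyltransferases and demethylases had 4 of 38 lower (10.5%, against 9.04% at the same levels). Their median of -0.52 was not below the -0.59 of all genes at the same levels, and it was -0.30 without control pool 2. KDM4A, a lysine demethylase, was at 7.82, 7.47 and 19.2 RPKM against 29.1 to 68.5. Absent values in that list made up 12.5% in the 3 pools against 19.1% at the same levels.

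Lipid droplet, fatty acid and cholesterol genes had 6 of 39 members lower (15.4%, against 6.22% at the same levels) and a median of -0.74, which was -0.44 without control pool 6 and -0.26 with quantile normalization. None of its 34 members present in the 6 was lost. The share over all such genes was 2.83%, too small for a count of 0 among 34 to set the list apart. Absent values made up 6.86% in the 3 pools against 9.33% at the same levels. PNPLA2, the triglyceride lipase of lipid droplets, was at 4.67, 2.23 and 4.41 RPKM against 9.07 to 18.1. SQLE, squalene epoxidase, was at 4.0, 5.98 and 6.66 RPKM against 9.09 to 24.3, and SCAP, the sterol sensor that escorts SREBP, at 7.58, 7.63 and 5.98 against 9.92 to 25.7. The transcription factor SREBF2 and the acyltransferase AGPAT2 were also lower. AGPAT1 and AGPAT3, of the same family but not on the list, were lost.

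Solute carriers had 20 of 215 members lower (9.30%, against 7.52% at the same levels) and 2 higher (0.930%, against 0.598% of all genes). Their median of -0.50 stood beside -0.45 for all genes at the same levels. Of 158 members present in the 6, 10 were lost, where 2.83% of all such genes were. SLC11A2, the divalent metal transporter, was at 0, 0 and 0.0562 RPKM against 3.49, 9.90 and 16.0 as lowest, median and highest of the 6. SLC7A1, a cationic amino acid transporter, was at 0, 0 and 0.261 RPKM against 0.682 to 18.5. SLC28A2, a concentrative nucleoside transporter, was higher, at 10.4, 16.5 and 10.9 RPKM against 0.324 to 3.60. Collagens, laminins and integrins had 4 of 32 members lower (12.5%, against 8.26% at the same levels). Of 19 members present in the 6, 3 were lost, among them ITGB5 and LAMA1, where 2.83% of all such genes were lost. Absent values made up 28.1% against 21.1% at the same levels. The interferon-stimulated list had 2 of 14 lower (14.3%, against 7.40% at the same levels), the transcription factors IRF7 and IRF9. IRF7 was at 21.9, 1.94 and 15 RPKM against 22.1 to 66.3, and its difference of -2.01 was -1.11 without control pool 3.

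The most completely retained classes were the protein synthesis and respiratory genes. All 81 cytosolic ribosomal protein genes, 77 respiratory chain and ATP synthase genes, 74 mitochondrial ribosomal protein genes, 38 ribosome assembly genes and 13 mitochondrially encoded messenger RNAs present in the 6 were retained in all 9. These lists hold highly expressed genes, with a median WNT5A mean of 440 RPKM for ribosomal proteins and 59.6 for ribosome assembly. At the levels of the lists in the order given, 0.153%, 0.220%, 0.761%, 3.62% and 0.0917% of the values of all genes were absent in the 3 pools. Of all genes with a WNT5A mean of 50 RPKM or more, 99.7% were retained. Apart from ribosome assembly, full retention was thus close to what all genes at the same levels had. Of the proteasome subunits 43 of 45 were retained (95.6%, against 69.2% of all genes). Their absent values made up 1.48% in the 3 pools against 1.95% at the same levels. Of the cell cycle and DNA replication genes 40 of 45 were retained (88.9%), with 4.44% of values absent against 5.66% at the same levels. In that list 0 of 46 were lower, against 4.12% at the same levels. Its median was -0.13, below the 0.15 of all genes at the same levels. The ribosome assembly list, though fully retained, likewise had a median of -0.13 against 0.15 at the same levels.

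Ribosomal protein genes also lay higher as a group, with a median of 0.71 and 82 of 83 members not below 0, or 0.40 with quantile normalization. Against the mean of the other controls the list median was 0.56, 0.39 and 1.07 in control pools 2, 3 and 6, and at 0.65 and 0.48 control pools 5 and 10 lay within that range. By the rule for single genes only RPS27 was higher, at 391.7, 438.6 and 640.3 RPKM in control pools 2, 3 and 6 and at 134, 258 and 332 as lowest, median and highest of the 6. RPS19 was at 450, 423 and 703 RPKM and overlapped the 182 to 447 of the 6. Their share of all reads was 5.2% to 6.75% in the 3 pools and 2.64% to 5.28% in the 6, so that the ranges touched. The median was 0.51 for respiratory chain genes and 0.67 for the mitochondrially encoded ones, and the latter was 0.17 without control pool 6. By pool, the respiratory median was 0.31, 0.31 and 0.92 in control pools 2, 3 and 6. It was 0.40, 0.57 and 0.42 in control pools 5, 10 and 13. The mitochondrially encoded median was 0.22, 0.16 and 1.31 in control pools 2, 3 and 6 and 0.32, 0.78 and 0.49 in control pools 5, 10 and 13. In both lists control pools 2 and 3 thus lay below control pools 5, 10 and 13, and control pool 6 lay above them. COX3, a mitochondrially encoded oxidase subunit, was at 7302, 6821 and 11668 RPKM against 3135 to 8168. The spliceosome list had a median of 0.24 that turned to -0.04 with quantile normalization. The translation factor list had 0.11, which turned to -0.01 with rescaling to genes above 10 RPKM. For each list of this paragraph the median of all genes at the same levels was 0.15.

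**Figure D5:**
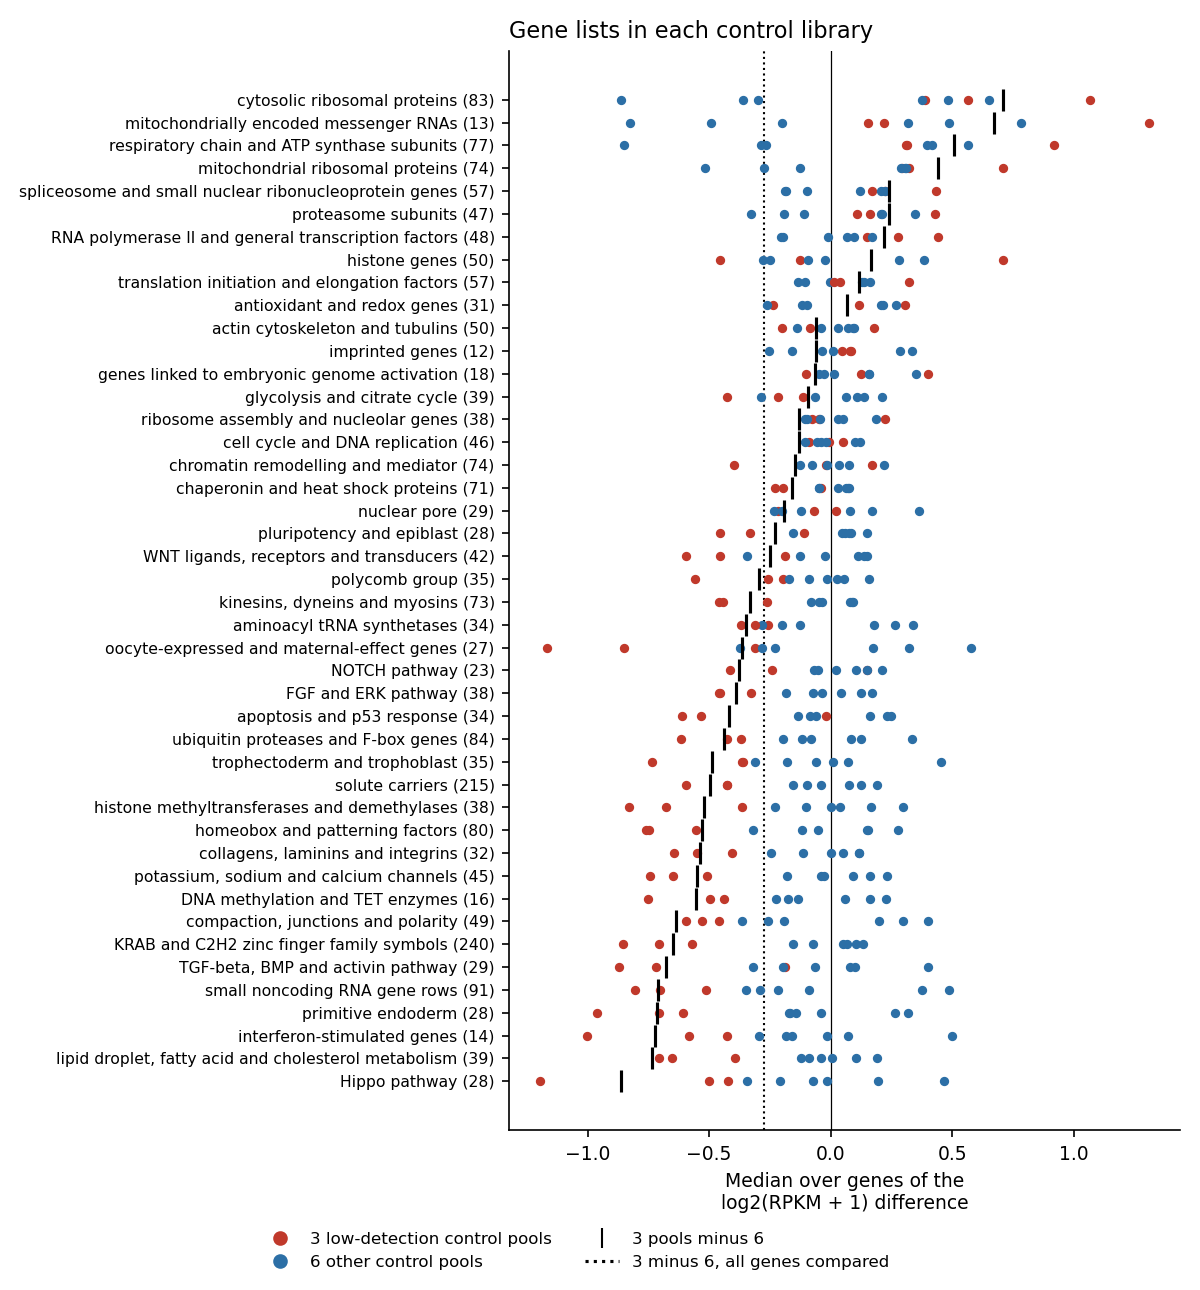
Gene lists with 10 or more compared members (number in brackets), ordered by the median log2(RPKM + 1) difference of control pools 2, 3 and 6 minus the other 6 (black bars); points give the list median in each pool minus the mean of the 6 other controls, itself excluded (red, the 3 pools; blue, the 6). Ribosomal proteins (0.71) and mitochondrially encoded messenger RNAs (0.67) lie at the top with overlapping colours and the Hippo pathway (-0.86) at the bottom; the dotted line marks all genes (-0.27), and with quantile normalization the spliceosome list turns from 0.24 to -0.04.

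The 78 higher genes held no large part of any list. HAND2, a bHLH transcription factor of later mesoderm, was at 12.9, 7.02 and 13.4 RPKM in control pools 2, 3 and 6 and at 0.0556, 0.948 and 2.68 as lowest, median and highest of the 6, while the WNT5A pools reached 11.2. SPDEF, an ETS factor of secretory epithelia, was at 37.3, 27.0 and 47.1 RPKM against 3.92, 8.38 and 16.6 in the 6 and at most 10.9 in the WNT5A pools. PCCA, a propionyl-CoA carboxylase subunit, was at 11.9, 11.9 and 11.98 RPKM against 1.06 to 7.56. HDAC4, a class IIa histone deacetylase, was at 4.78, 7.10 and 3.98 RPKM against 0.209 to 1.53, but reached 4.95 in the WNT5A pools. STAB1, a scavenger receptor known from macrophages, was at 1.58, 2.55 and 9.20 RPKM against 0.00246 to 0.833.

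Oocyte-expressed genes varied between the 3 pools themselves. Of 27 compared members 2 were lower, DDX4 and CCNB3 (7.41%, against 7.54% at the same levels). Of 11 members present in the 6, 6 were retained (54.5%, against 69.2% of all genes). Absent values made up 15.2% in the 3 pools against 11.9% at the same levels. The list median of -0.36 was -0.01 without control pool 2 and -1.07 without control pool 3. All genes at the same levels had a median of -0.45. BTG4, which is needed for the clearance of maternal transcripts, was at 10.8, 181 and 0.0114 RPKM in control pools 2, 3 and 6 and at 0 to 52.0 in the 6. MOS, the meiotic kinase, was at 23.3, 18.97 and 22.6 RPKM against 0 to 22.9. The zona pellucida gene ZP3 was at 0, 2.01 and 8.23 RPKM against 0.0113 to 3.25.

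Markers of other cells were far below those of the morula in both sets of pools. The 11 cumulus and granulosa markers in the table summed to 4.17 to 18.1 RPKM in the 3 pools and 2.68 to 18.5 in the 6. Only 4 of them were compared, and 2 were lower (50%, against 6.06% at the same levels). AMH was at 0 in all 3 pools and at 0.249 to 7.76 RPKM in the 6. COL1A2 was at 0, 0.00266 and 0 RPKM in control pools 2, 3 and 6 and at 0.146 to 3.91 in the 6. The 2 sperm markers summed to 0 to 10.6 against 2.33 to 8.77 and the 11 oocyte markers to 39.2 to 75.6 against 18.0 to 69.8. The 3 blood and immune markers summed to 13.1 to 19.9 RPKM in the 3 pools and 3.60 to 13.6 in the 6. Of these, AIF1, a macrophage gene, was at 7.45, 5.05 and 4.47 RPKM against 0 to 7.47, and HBA, a globin gene, at 12.4, 8.02 and 11.1 against 3.60 to 9.27. None of these markers was at 0 in all controls, and the part of other cells in the differences above was not tested.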

How the data were processed

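RNA of 17 pools of 10 bovine morulae was extracted with a column micro kit and made into stranded mRNA libraries, per the labels' protocols. FastQC, HISAT2, featureCounts, edgeR and the build ARS-UCD1.2 are named in the submitters' processing notes. Versions, annotation release and strand setting: not given in the sources used here. From these steps the authors deposited 1 table of RPKM values per gene and pool. It also holds their own log2 fold changes, likelihood ratio scores and p-values for WNT5A against control as deposited, which were not used. No per-sample column was left unused (0).

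RPKM times exon length gave whole multiples of 1 step per library in 100% of values (tolerance 0.001), so read numbers were recovered as counts of steps. On 1 kb of exon, the floor of 3 reads is 0.0183 to 0.0237 RPKM in the controls and covers counting error only; PCR duplicates are not independent molecules. Differences are means of log2(RPKM + 1) in control pools 2, 3 and 6 minus the other 6, a scale that understates changes of low genes, with SE from the spread within the 2 sets. Genes with 0.5 RPKM in at least 3 of 9 controls were compared. Calls need no overlap and a log2 difference of 1. "At the same levels" weights all genes by class of WNT5A mean (0.5, 2, 5, 10 and 50 RPKM bounds). No p-value was computed, since the rule uses these measurements. The procedure was tested on simulated data.

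The pools, the 47 gene lists and the alternatives were chosen with earlier results of these data known. Named genes are a fixed group, the 15 lower and 15 higher genes with the largest difference, up to 4 lower and 3 higher members per list by mean RPKM (or the 2 highest where none is called) and the 5 lost genes with the highest level; other members are named to show their list and were chosen after their values were seen. Python 3.11.15, numpy 2.4.6, pandas 2.3.3 and matplotlib 3.10.9 were used.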

Additional observations from a re-analysis of the deposited data

Results flagged for a closer look

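Within the 6 other control pools, 167 sets of values (those of 160 named genes and 7 library measures) were examined for a single pool far from the rest, that is with a gap to its nearest neighbour that is large relative to the whole range. There were 11 such values, and chance alone marks about 5% of sets. Control pool 4 was the highest of the 6 for ACTB (13120 RPKM), FOXJ2 (8.48 RPKM), JRK (28.6 RPKM) and KDM4A (68.5 RPKM). Control pool 9 was the highest for FOXC2 (17.6 RPKM), IRX4 (7.08 RPKM) and PAG2 (15.2 RPKM). Control pool 10 was the highest for AIF1 (7.47 RPKM) and NUP153 (11.3 RPKM). Control pool 5 was the lowest for KRT18 (281 RPKM) and control pool 1 for SNORD96 (24.0 RPKM). JRK, FOXC2 and PAG2 had no read in control pools 2, 3 and 6, and the lower calls of JRK and FOXC2 rest on the lowest of the 6, 6.42 and 2.66 RPKM, not on these high values.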

How the results depend on the processing

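Quantile normalization gave 455 lower and 359 higher genes (442 and 74 of them shared with the 920 and 78), a log2 difference of 2 gave 336 and 9, and no condition on overlap gave 2603 and 292. The median over all genes was -0.52 with a pseudocount of 0.1, -0.19 with no filter, -0.063 with quantile normalization and -0.36 with median ratio rescaling, which was chosen after seeing the data. Lost genes numbered 159 when absence meant no read and 155 when presence meant 1 RPKM. The gap in mean genes detected, -3510, was -2312 at 1 RPKM. Leaving out each control in turn gave 968 to 1746 lower genes, 78 to 362 higher, 294 to 592 lost and medians of -0.29 to -0.22. Without control pools 2, 3 and 6 the lower genes numbered 1422, 1746 and 1612, the higher 309, 362 and 243 and the lost 419, 592 and 531; without control pool 5 there were 131 higher genes. With fewer pools the condition on overlap is easier to meet. Among 2528 values of named genes 196 moved and among 720 of lists 87 moved. Most moved with a pseudocount of 0.1, quantile normalization or one of the 3 pools left out. No called gene among those named changed sign. Leaving out a pool cannot change that sign, because a call needs no overlap. Lists were not checked for a change of sign, and the spliceosome median turned from 0.24 to -0.04 with quantile normalization. No paired analysis was possible because both sets of pools come from the control group and carry different numbers. Low genes rest on few reads, and 3 against 6 pools limit the precision.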
